A study of Caenorhabditis elegans with 83 samples.

Results

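PQN-85 was mapped by ChIP-seq in whole L3 larvae of Caenorhabditis elegans strain HW04, kept for 1 h with or without auxin. The 4 peak lists described here were chosen by strain and antibody alone, 2 replicates without auxin and 2 with it, out of 21 peak lists and 83 samples in the series. They held 24286 peaks in all. Larvae hatched without food were fed for 24 h at 22 °C, and treated worms then spent 1 h on plates holding 1 mM auxin, while the untreated ones were kept on plates without it. Strain HW04 is given under the label for genotype, and the alleles or degron target behind this name are not given in the sources used here, so the protein that auxin would remove in it is not stated. Both groups share strain, stage, tissue (whole worms) and antibody. Nothing in the labels says whether replicates were separate cultures, so their spread may be technical. Peak sets of other strains, all given auxin, are set beside these lists below. By the titles of the authors' RNA comparisons, CA1200 was the control, SMC-3 was depleted in JK05 and WAPL-1 in JK06.

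Cohesin is a ring of SMC-1, SMC-3 and a kleisin subunit that holds sister chromatids together and folds chromosomes into loops. PQN-85, encoded by the gene now called scc-2, is the worm counterpart of NIPBL and yeast Scc2, which with its partner MAU-2 loads cohesin onto DNA and stimulates its movement along it. In worms the loader and cohesin are found at active promoters and enhancers, and on the X chromosome of hermaphrodites a condensin-based dosage compensation complex works beside them. A peak is a stretch where the antibody recovered more DNA than the input, its fold enrichment is how many times the ChIP signal exceeded that of the input library at the peak's summit, and its −log10 q measures how far the authors' caller held it from background.

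The names inside the 4 PQN-85 lists state the same condition as their labels, and each names an extract and an input library of its own. Read numbers are not in the files, so depth is unknown. Peaks with a fold of 2.5 to 3 had a median −log10 q of 20.6 and 20.5 without auxin and 16.3 and 25.4 with auxin, replicate 1 before replicate 2, here and throughout. At equal fold the shortest list thus carried the highest significance, and how far depth moved with the treatment was not tested. With 2 libraries against 2, the two-sided exact permutation test used below cannot go under p = 0.33, so no difference between the conditions can pass a threshold of 0.05. In all, 12 differences were tested, and the lowest p adjusted over them by the Benjamini-Hochberg method was 0.667 (exact permutation test).

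Both lists with auxin were shorter than both without, and the peaks in them covered less of the genome. Without auxin the 2 libraries gave 6553 and 12367 peaks, against 4070 and 1296 after auxin. These covered 4.03 and 6.57 Mb against 2.09 and 0.636 Mb, so the groups did not overlap. The log2 difference in covered bases was −2.16, or 0.224-fold, with an SD of 0.50 without and 1.21 with auxin (n = 2 each, exact permutation p = 0.33). Between libraries of the same replicate number, which were not taken as pairs, the differences were −0.95 for replicate 1 and −3.37 for replicate 2. The libraries numbered 2 were both the longest and the shortest list.

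**Figure D1:**
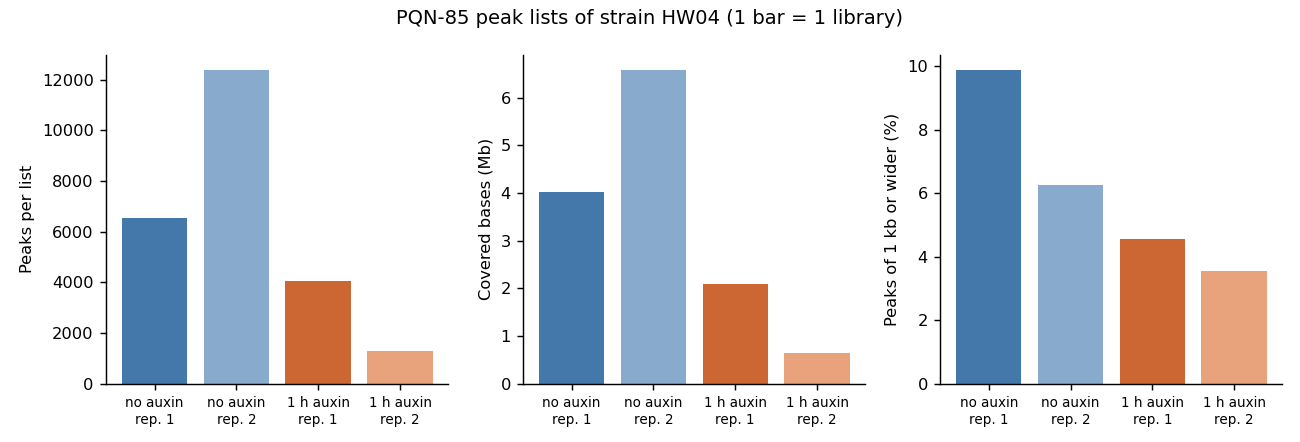
Number of peaks, covered bases in Mb and percent of peaks 1 kb or wider in the 4 PQN-85 lists of HW04, 1 bar per library and no error bar. In each panel both bars with auxin are lower than both without, from 6553 and 12367 peaks to 4070 and 1296, and from 9.87% and 6.26% wide peaks to 4.55% and 3.55%.

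The typical peak had a like size in all 4 lists, while the wide and the high peaks were unevenly spread. Median widths were 473 and 430 bp without auxin and 432 and 418 bp with it (log2 difference −0.09, exact permutation p = 0.667). Median folds were 2.19 and 2.46 against 2.33 and 2.08 (log2 difference −0.08, exact permutation p = 0.667). Neither measure separated the groups. Peaks of 1 kb or wider made up 9.87% and 6.26% of the lists without auxin and 4.55% and 3.55% of those with it, and held 28.1% and 18.9% against 14.4% and 12.3% of the covered bases. These shares did separate the groups. The single widest peak measured 11036 bp in replicate 1 of both conditions. Peaks of at least 3-fold enrichment were 18.2% and 29.9% without auxin and 20.7% and 11.7% with it, so the groups overlapped.

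When each list was cut to its 1296 peaks of highest score, the length of the shortest list, auxin replicate 2 stayed whole and the longer lists kept only their strongest peaks, which raises their median fold and width by construction. Median widths were then 692 and 747 bp without auxin and 534 and 418 bp with it (log2 difference −0.61). Median folds were 3.59 and 4.83 against 3.26 and 2.08 (log2 difference −0.68). Both gave an exact permutation p of 0.33.

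The lists were nearly nested. Of the peaks of the shortest list, auxin replicate 2, 93.0% overlapped a peak of auxin replicate 1 by at least 1 bp, 87.7% one of no auxin replicate 1 and 94.1% one of no auxin replicate 2. Of auxin replicate 1, 80.1% and 91.7% of peaks lay at no auxin peaks of replicates 1 and 2. No auxin replicate 1 lay inside no auxin replicate 2 to 92.3%. In the other direction, counted over the longer list, the shares were lower. They were 49.4% of no auxin replicate 2 in replicate 1, and 29.2% of auxin replicate 1 in auxin replicate 2. With lists of equal length the replicates shared 73.7% and 74.9% of peaks without auxin and 65.6% and 67.4% with auxin.

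Joined across the lists, the peaks formed 12886 sites. Of these, 5690 (44.2%) were found in no auxin replicate 2 alone and 2877 in both lists without auxin and neither with it. A further 1953 were in both lists without auxin and in auxin replicate 1, and 1005 (7.80%) were in all 4 lists. Sites in both lists with auxin numbered 1139, of which 1121 (98.4%) were also in a list without auxin. The remaining 18 sites were in both lists with auxin and neither without. With lists of equal length, the classes found in both lists of 1 condition alone numbered 248 sites without auxin and 267 with it. In the full lists these were 2877 and 18. The cut gives each list the same number of peaks, which draws these classes towards like numbers by construction. It also sets the strongest peaks of the longer lists against the whole of auxin replicate 2. Leaving out auxin replicate 2, the shortest list, raised the number of sites common to every list from 1005 to 2958.

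The sites of highest enrichment without auxin were found in the auxin lists more often than the weakest ones, though not all of them were. The 5870 sites in both lists without auxin were ranked by the lower of their folds and split into quintiles. In the lowest quintile, with folds of 1.15 to 1.86, 26.2% of sites were in auxin replicate 1 and 7.58% in auxin replicate 2. In the highest quintile, with folds of 2.99 to 9.62, the shares were 91.7% and 47.4%. Both auxin lists thus recovered a larger share of the strong sites than of the weak ones, as a description across sites of the same 4 libraries.

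**Figure D2:**
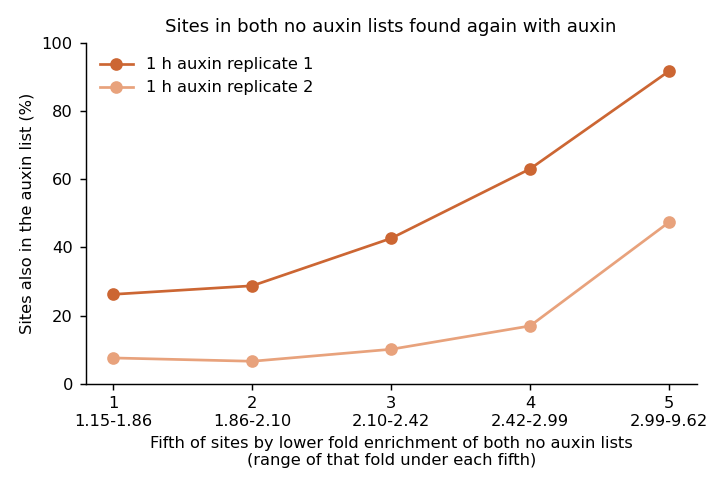
Percent of the 5870 sites in both no auxin lists that were also in each auxin list (y axis), by quintile of the lower no auxin fold enrichment (x axis, the fold range under each quintile). Auxin replicate 1 goes from 26.2% to 91.7% and auxin replicate 2 from 7.58% to 47.4% between the lowest and the highest quintile.

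At the 1005 sites in all 4 lists, the groups overlapped in enrichment. The median fold was 3.19 and 4.32 without auxin and 3.23 and 2.13 with it, a log2 difference of −0.50 with an SD of 0.31 and 0.42 (n = 2 each, exact permutation p = 0.667). Between libraries of the same replicate number the differences were 0.02 for replicate 1 and −1.02 for replicate 2. At 452 of these sites (45.0%) both auxin folds lay below both no auxin folds, and at 28 (2.79%) both lay above. Of the 228 such sites at a gene start, 118 (51.8%) had both auxin folds below. Of the 232 on X it was 89 (38.4%). The rank correlation of folds across the 1005 sites, which share libraries and base composition, was 0.82 between the replicates without auxin and 0.71 between those with auxin. Between a list without and a list with auxin it was 0.35 to 0.57.

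The 12 sites named for the highest lowest fold over all 4 lists, at most 3 per chromosome, lay on 5 chromosomes. In the coordinates of the lists, whose build is not stated for these samples, 3 of them lay within pqn-41 on chromosome III. This gene encodes a prion-like, glutamine- and asparagine-rich protein that takes part in the death of the linker cell. The sites spanned 1920697 to 1922088, 1923090 to 1924198 and 1924690 to 1925776. The middle one had folds of 10.2 and 6.98 without and 8.91 and 6.57 with auxin. The groups overlapped there, and both were far above the median of their lists.

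Of the other sites with high folds, 3 lay on X outside genes and far from any start, the nearest being those of ZK380.2 (−3462 bp), ZC53.1 (3811 bp) and Y41G9A.6 (6717 bp). The site at X from 1626708 to 1627708 had folds of 10.8 and 8.41 without auxin and 8.82 and 6.03 with it. The site at X from 1908964 to 1910037 had 9.03 and 8.19 against 9.46 and 6.0, and that from 2996114 to 2997709 had 7.05 and 7.72 against 9.65 and 5.69. Auxin replicate 1 was the highest of the 4 lists at the second and the last of these, and auxin replicate 2 the lowest at each.

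The site nearest to a gene start in this group covered V from 11887610 to 11890037. Its summit lay −84 bp from adh-1, which encodes an alcohol dehydrogenase. It had folds of 9.24 and 8.31 without auxin and 8.58 and 5.93 with it. The other members were V from 13080889 to 13083439, at −4796 bp from C34B4.2, IV from 9867751 to 9868480 near K07F5.15, II from 12625532 to 12626052 near nspe-7, and II from 2972777 to 2974684 upstream of nhr-88, a nuclear hormone receptor gene. At the K07F5.15 site auxin replicate 1 stood highest, with 9.19 against 6.12 and 5.25 without auxin and 5.43 in auxin replicate 2. The last of the 12 was the promoter shared by the heat shock genes F44E5.4 and F44E5.5 on II from 11756590 to 11762251, taken up below.

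Among sites in both lists without auxin and neither with it, the 6 named had folds of 3.95 to 5.95. On X, neighbouring sites from 2003886 to 2004783 and from 2008239 to 2009263, outside genes, had folds of 5.16 and 4.4 and of 4.65 and 4.65. Within gar-2, which encodes a muscarinic acetylcholine receptor, the site on III from 6317088 to 6317772 had 4.12 and 4.27. On III from 5018018 to 5018521, at −347 bp from wip-1 and near larp-1, an RNA-binding protein gene, the folds were 4.11 and 5.30. The other named sites were V from 11083589 to 11084172, with 3.96 and 4.70, and IV from 3127898 to 3128532 within mca-3, a plasma membrane calcium pump gene, with 3.95 and 5.95. All 6 overlapped a PQN-85 peak that the authors combined over libraries of JK06, another strain given auxin. The sites on X overlapped neither the combined set of CA1200 nor that of JK05, and the site on V overlapped that of JK05 but not that of CA1200. Over all 2877 sites of this class, 68.9% overlapped the JK06 set, 57.6% that of CA1200 and 47.7% that of JK05.

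Over the 18 sites in both lists with auxin and neither without, the median of the lower fold was 2.08, against 2.02 over the 2877 sites in both lists without auxin alone. The highest of the 18 lay on I from 11432700 to 11433200, 2978 bp downstream of the start of nhr-73 and outside the gene, with folds of 4.17 and 2.48. It was followed by IV from 11503599 to 11504031, at −889 bp from the potassium channel gene twk-25, with 2.46 and 2.36. Then came II from 3854684 to 3855120 near oac-11, with 3.67 and 2.22, and IV from 11901147 to 11901621 within nhr-43, with 3.36 and 2.22. None of the 18 lay on X.

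Peaks with auxin were narrower at the very sites that all 4 lists share. The median width over the 1005 sites was 680 and 739 bp without auxin and 571 and 431 bp with it. Sites of 1 kb or wider were 28.2% and 29.95% against 12.4% and 4.18%. At 571 sites (56.8%) both auxin peaks were narrower than both no auxin peaks, and at 34 (3.38%) both were wider. The median folds of no auxin replicate 1 and auxin replicate 1 at these sites were 3.19 and 3.23. Over whole lists, peaks with a fold of 2.5 to 3 had median widths of 526.5 and 442 bp without auxin and 449 and 462 bp with it. How far depth or the caller moved the widths was not tested. The share with both auxin peaks narrower was 58.3% at gene starts, 56.8% within genes and 56.1% elsewhere, and 51.7% on X.

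Broad sites were a class chosen after the widths were seen, by their width without auxin, so narrower peaks with auxin are partly fixed by the choice. Of the 1005 sites, 57 were 2 kb or wider in both lists without auxin. Their median widths were 3177 and 2868 bp without auxin and 1196 and 577 bp with it. At 23 of them both auxin peaks were under 1 kb, and 7 were still 2 kb or wider in both auxin lists. The reverse pattern, 2 kb or wider in both auxin lists and under 1 kb in both no auxin lists, had 0 sites of the 8 that were this wide in both auxin lists. The 23 sites had median folds of 4.92 and 5.93 without auxin and 3.89 and 2.30 with it, and at 7 of them the higher auxin fold was at or above the lower no auxin fold. Width depends on where the caller ends a peak, and so on enrichment and depth, and the part of these in the difference was not tested. Each width is that of the widest peak of a list at the site, and 191 of the 1005 sites held several peaks of the same list. When the widths of all peaks of a site were added up, 13 sites had the pattern. Left to 3 lists, the pattern counted 43 sites without no auxin replicate 1, 42 without no auxin replicate 2, 44 without auxin replicate 1 and 36 without auxin replicate 2, and the reverse pattern at most 1.

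**Figure D3:**
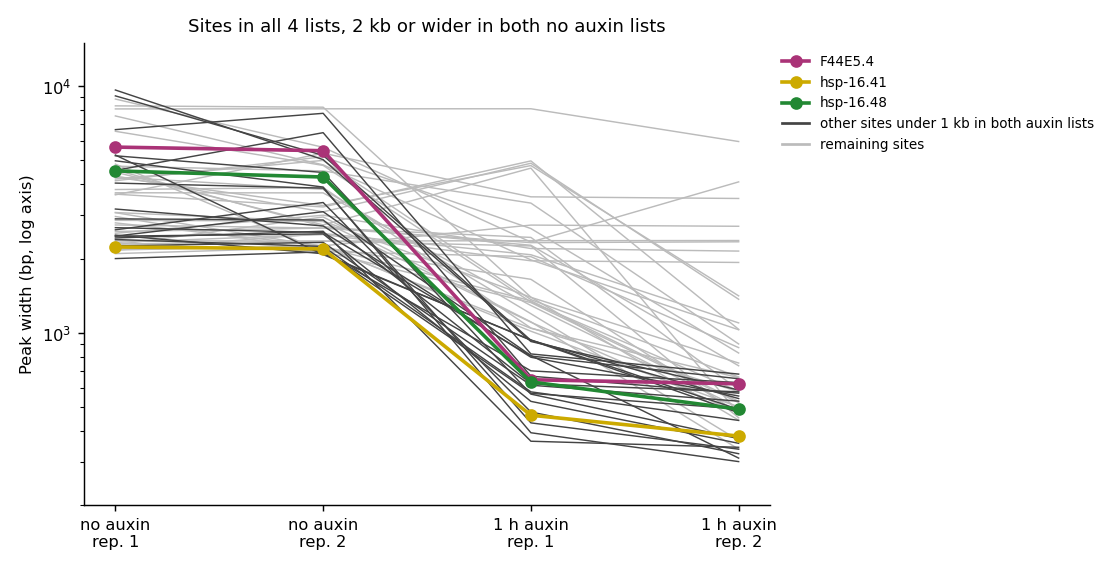
Peak width in bp on a log axis (y) in each of the 4 lists (x) at the 57 sites that were in all 4 lists and 2 kb or wider in both without auxin, 1 line per site. Dark and coloured lines are the 23 sites under 1 kb in both auxin lists, among them the heat shock gene sites at F44E5.4 (5662, 5475, 646 and 622 bp), hsp-16.48 (4534, 4283, 633 and 491 bp) and hsp-16.41 (2230, 2190, 464 and 382 bp).

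Of these 23 sites, 3 were at heat shock genes. The promoter shared by F44E5.4 and F44E5.5, which encode chaperones of the HSP70 family, had a peak of 5662 and 5475 bp without auxin and of 646 and 622 bp with it. Its folds were 5.96 and 7.37 without auxin and 7.98 and 4.12 with it, so auxin replicate 1 had the highest summit and a narrow peak. The promoter shared by the small heat shock genes hsp-16.1 and hsp-16.48, on V from 9086581 to 9091114, had widths of 4534 and 4283 against 633 and 491 bp. Its folds were 4.98 and 6.02 against 5.39 and 3.31. The promoter shared by hsp-16.2 and hsp-16.41, on V from 1804107 to 1806349, had widths of 2230 and 2190 against 464 and 382 bp and folds of 2.96 and 5.49 against 3.4 and 2.58.

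Other sites of this class were not at heat shock genes. One lay on V from 6222106 to 6231319 within W06H8.6, with widths of 9131 and 5242 bp without and 933 and 542 bp with auxin. On II from 10541699 to 10551344 within mnk-1, which encodes a kinase of translation factors, they were 9646 and 5037 against 923 and 587 bp. Upstream of pck-1 on III from 63850 to 68001, a gene for phosphoenolpyruvate carboxykinase, they were 4047 and 3861 against 432 and 338 bp. On X, the site within unk-1 from 8014152 to 8020506 measured 4983 and 3900 against 394 and 301 bp.

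Strain CA1200, the control, was given auxin too, and its combined PQN-85 set had wide peaks at most of these sites. Of the 23, 20 had a CA1200 peak, 16 of 2 kb or more, with a median of 2525 bp. The combined set of JK05 had 11 of 22 at 2 kb or more and that of JK06 9 of 23. At the F44E5.4 site the widths were 5692 bp in CA1200, 1485 bp in JK05 and 1168 bp in JK06. The control SMC-3 set was 2 kb or wider at 20 of the 22 sites where it had a peak, with a median of 4695 bp. These sets were combined by the authors over libraries, so their widths and those of single libraries are set side by side without a test.

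The 4 sites named for the greatest lowest width over the lists differed in fold. On V from 7916893 to 7925032, near srsx-7, a chemoreceptor gene, peaks measured 8085 and 8093 bp without and 8097 and 5964 bp with auxin, at folds of 2.07, 2.1, 2.32 and 1.80. Near nssp-72 on V from 19364316 to 19366765 they measured 2365, 2355, 2365 and 2368 bp at folds of 1.66 to 1.92. Within agef-1 on I from 13609974 to 13615321, a gene for a factor of Golgi traffic, the folds were higher, 4.34 and 5.71 without and 3.92 and 3.24 with auxin, and the widths were 3627, 5348, 3560 and 3506 bp. The site near fbxc-55 on II from 3159612 to 3168486 held 12 peaks in all, the widest being 8865 bp in no auxin replicate 1. None of these 4 was in the combined CA1200 PQN-85 set.

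X held nearly the same share of each list. It was 19.99% and 20.1% without auxin and 20.1% and 20.6% with it, where X makes up 17.7% of the span. The difference of 0.32 percentage points gave an exact permutation p of 0.33, and exact 95% intervals for counting error ran from 19.03% to 20.98% in no auxin replicate 1 and from 18.4% to 22.9% in auxin replicate 2. Of peaks with a fold of at least 3, X held 20.5% and 17.4% without and 22.1% and 36.4% with auxin. The last rests on 151 peaks. The exact permutation p was 0.33 for this difference of 10.3 points as well.

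The autosomes were not alike in how many peaks the auxin lists held. The ratio of mean peak numbers (auxin over no auxin, on the log2 scale) was 0.193 for I, 0.229 for III, 0.251 for IV, 0.259 for X, 0.269 for II and 0.319 for V. Chromosome I held 15.3% and 14.9% of the peaks without auxin and 12.7% and 10.3% with it. Chromosome V held 17.02% and 18.2% against 21.4% and 22.7%. On both chromosomes the groups did not overlap, but neither did they on II, III or X, and only on IV did they overlap. Of the sites in both lists without auxin, 11.3% on I, 20.9% on V and 19.7% on X were in all 4. The middle of 3 equal parts of each chromosome, where genes are dense and recombination is low, held 38.2% and 39.3% of summits without auxin and 37.7% and 34.4% with it (exact permutation p = 0.33), and the 7 peaks on mitochondrial DNA were all in no auxin replicate 1.

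Summits near gene starts were more frequent than the span would give in each list. Within 500 bp of a start lay 29.5% and 29.8% of summits without auxin and 30.9% and 22.1% with it, where 17.7% of the span lies that near. The groups overlapped (difference −3.16 points, exact permutation p = 1). Of these summits 85.2% to 88.8% lay upstream of the start, at a median of −145 to −170 bp, in each list. Within genes and farther from a start lay 26.2% and 26.9% against 23.4% and 27.1%, where 48.9% of the span does.

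The share in no gene and far from a start did not overlap between the groups in the full lists, and did in lists of equal length. In the full lists it was 44.3% and 43.3% without auxin and 45.7% and 50.8% with it, a difference of 4.43 points with an SD of 0.751 and 3.68 (n = 2 each, exact permutation p = 0.33), where this class makes up 33.4% of the span. With lists of equal length it was 41.98% and 45.6% against 45.1% and 50.8% (exact permutation p = 0.67). Among peaks with a fold of at least 3 the shares near a start were 33.6% and 31.7% without auxin and 27.7% and 13.9% with it, and those far from any gene 43.5% and 42.9% against 48.2% and 58.3% (exact permutation p = 0.33 for both). Over all peaks, the difference near starts was 1.26 points without auxin replicate 2.

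Genes with a summit within 500 bp of their start numbered 2288 and 4193 without auxin and 1451 and 319 with it, of 18607. In all 4 lists it was 245 genes (1.32%), and 1093 when auxin replicate 2 was left out. They were abundantly expressed genes. The median mean normalized count in the authors' deposited table of JK05 over CA1200, other strains after 4 h of auxin, was 703 and 577 for the genes without auxin, 758 and 878 for those with it and 1033 for those in all 4 lists. It was 143 over all genes and 68.3 over genes in no list. In the quintile of genes with the highest mean count, 27.9% and 45.8% had a peak without auxin and 18.7% and 4.41% with it. In the lowest quintile it was 2.34% and 3.83% against 1.57% and 0.469%.

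Heat shock and chaperone genes had peaks at most of their starts in each of the 4 lists. Of 22 with a start, 14 and 16 had a peak without auxin and 16 and 13 with it, and 11 (50.0%) had one in all 4 lists, where 1.32% of all genes did. In lists of equal length the numbers were 11 and 11 without and 14 and 13 with auxin, and 10 in all 4. Leaving out any 1 of the 4 libraries gave 11 to 13 genes with a peak in each remaining list. The members share peaks, since F44E5.4 with F44E5.5, hsp-16.2 with hsp-16.41 and hsp-16.1 with hsp-16.48 each start from 1 promoter in opposite directions.

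**Figure D4:**
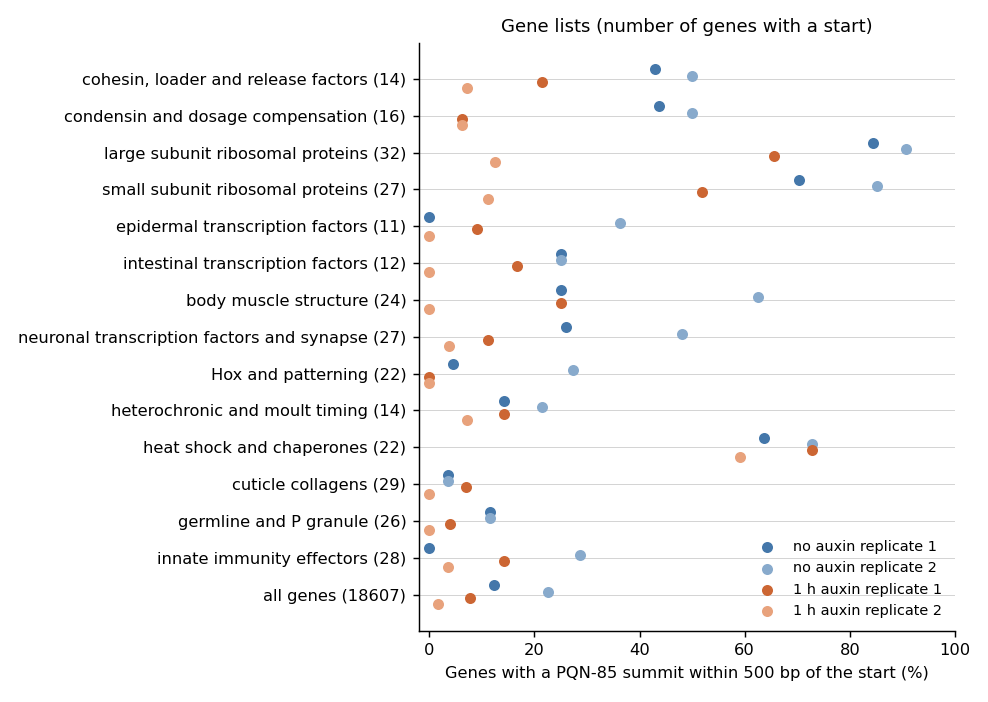
Percent of genes with a PQN-85 summit within 500 bp of the start (x axis) in each of 14 gene lists and in all 18607 genes (y axis, number of genes in brackets), 1 point per library. The heat shock and chaperone list holds 59.1% to 72.7% in all 4 libraries, while large subunit ribosomal proteins range from 90.6% to 12.5% and all genes from 22.5% to 1.71%.

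Beside the divergent promoters given above, hsp-1 on IV, the constitutive HSP70, had folds of 6.44 and 7.07 without auxin and 5.43 and 3.33 with it, with summits at −388 to −423 bp from its start. The groups did not overlap for hsp-1. The other members with a peak in all 4 lists were hsp-110, a nucleotide exchange factor of HSP70, with 4.03, 5.05, 2.81 and 1.81, hsp-3, the HSP70 of the endoplasmic reticulum, with 3.28, 4.12, 3.14 and 1.77, dnj-13, an HSP40, with 2.68, 4.08, 2.74 and 1.75, and sti-1, which links HSP70 to HSP90, with 3.94, 4.37, 2.68 and 1.69.

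Some members differed between the conditions in whether a summit lay within 500 bp of the start, which is what a peak means here. The divergent pair hsp-16.11 and hsp-16.49 had no such summit in either list without auxin and folds of 4.53 and 2.37 with auxin. It is a near-identical copy of hsp-16.1 and hsp-16.48, so reads could be placed at either copy, and the calls at each are uncertain. The pair had folds of 6.43 in the JK05 set and 4.74 in that of JK06, and no such summit in that of CA1200. Yet JK05 and JK06, with peaks of 4384 and 4324 bp at the hsp-16.48 site, had no summit near the starts of hsp-16.1 and hsp-16.48. CA1200, with a peak of 4403 bp there, had one. Whether wide peaks with a summit at 1 copy, as in the lists without auxin, covered the other copy was not tested. hsp-70 differed the other way, with folds of 1.91 and 2.99 without auxin and no peak with it. dnj-12 and the mitochondrial HSP70 gene hsp-6 had peaks in 3 lists and none in auxin replicate 2. hsf-1, which encodes the heat shock transcription factor, hsp-60, hsp-90 and hsp-25 had no peak at the start in any list.

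**Figure D5:**
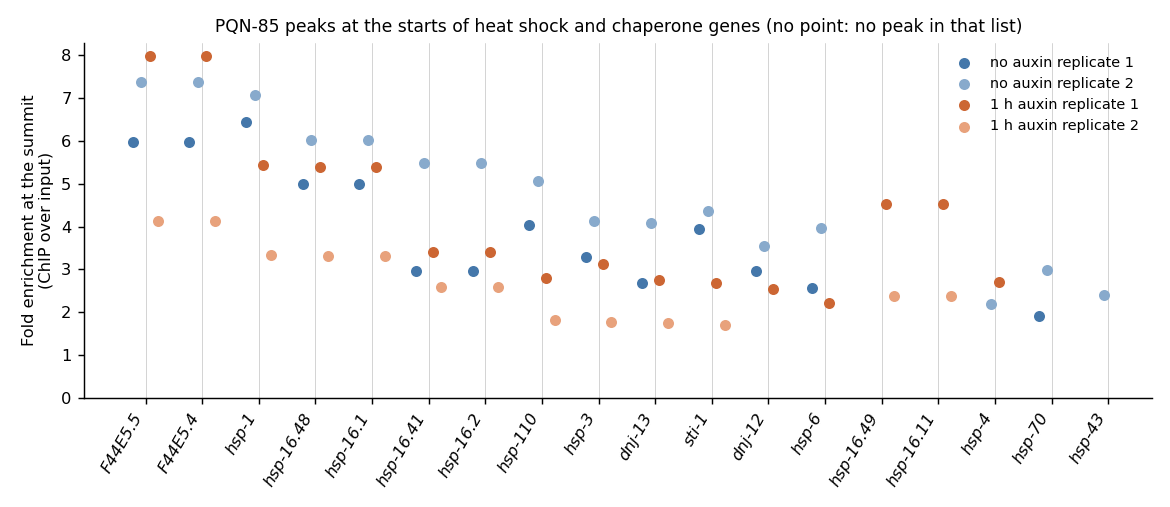
Fold enrichment of ChIP over input at the summit (y axis) for each heat shock or chaperone gene with a peak at its start in at least 1 list (x axis), 1 point per library. Points for F44E5.4, F44E5.5, hsp-1, hsp-16.1 and hsp-16.48 are above 3 in each of the 4 libraries, and hsp-16.11 and hsp-16.49 have points for the auxin libraries only.

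In the other strains, all given auxin, the same list held peaks at 10 of 22 genes in the combined PQN-85 set of CA1200, 15 in JK05 and 16 in JK06, and at 15 in the control SMC-3 set. Over all genes, 11.95%, 11.4%, 14.1% and 14.3% had a peak at the start in these sets. Folds at the F44E5.4 promoter were 7.0, 7.64 and 6.02 for PQN-85 in the 3 strains and 4.27 for SMC-3 in the control.

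Ribosomal protein genes, which are among the most expressed genes of a growing larva, had peaks at most starts without auxin and at few in auxin replicate 2. Of 32 large subunit genes, 27 and 29 (84.4% and 90.6%) had a peak without auxin and 21 and 4 (65.6% and 12.5%) with it. Of 27 for the small subunit it was 19 and 23 against 14 and 3. Those in all 4 lists numbered 4 and 3, and 20 and 13 without auxin replicate 2, so the count rested on this library. For comparison, the shares over all 18607 genes were 12.3% and 22.5% without auxin and 7.80% and 1.71% with it. The low share in auxin replicate 2 was thus not particular to ribosomal protein genes. In that list the 12.5% of large subunit genes lay above the 1.71% of all genes. rpl-3 had folds of 5.67 and 5.24 without auxin and 3.61 and 2.11 with it, and rps-20 5.66 and 6.93 against 4.16 and 2.5. rpl-15 had 6.24 and 6.07 against 4.24 and 2.24, and rps-15 5.08 and 6.05 against 4.54 and 2.24. In each of these 4 genes both auxin folds were below both no auxin folds. The same held at 45.0% of the 1005 sites in all 4 lists, and at 51.8% of those at a gene start.

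Genes of cohesin and of its loader carried moderate peaks. Of 14, 6 and 7 (42.9% and 50.0%) had one without auxin and 3 and 1 (21.4% and 7.14%) with it. Among all genes it was 12.3% and 22.5% against 7.80% and 1.71%, so the share with a peak was lower with auxin there too. scc-2, which encodes PQN-85 itself, had folds of 2.83 and 3.57 without auxin, 2.37 in auxin replicate 1 and no peak in auxin replicate 2. wapl-1, which encodes the cohesin release factor, had 3.46 and 3.63 against 2.56 and no peak. mau-2, the loader partner, scc-1, a kleisin, and smc-3 had peaks in both lists without auxin, with folds of 2.02 to 2.94, and none with auxin. ctf-4, a replisome factor that aids cohesion, was the only one of the list in all 4, with 3.64 and 5.19 against 2.92 and 1.76.

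Of 16 condensin and dosage compensation genes, 7 and 8 (43.75% and 50.0%) had a peak at the start without auxin and 1 and 1 (6.25%) with it. Over all genes the shares were 12.3% and 22.5% against 7.80% and 1.71%, so the auxin counts are near the background. The one that remained was sdc-2, the gene that starts the assembly of the dosage compensation complex on X, with folds of 4.05 and 5.05 without auxin and 3.21 and 2.17 with it. mix-1, a condensin subunit, had 2.08 and 1.97 without auxin. set-4, the H4K20 methyltransferase that acts on X, had 2.85 and 3.57. Neither had a peak with auxin.

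For the lists that follow, the shares over all 18607 genes were 12.3% and 22.5% without auxin and 7.80% and 1.71% with it. Counts in auxin replicate 2, of 0 or 1 gene a list, are near that background. Of 24 body muscle genes, 6 and 15 (25% and 62.5%) had a peak without and 6 and 0 (25% and 0%) with auxin. Among them act-4, an actin gene, had folds of 3.30 and 4.54 against 2.29 in auxin replicate 1, and mup-2, for troponin T, 2.58 and 3.94 against 2.27. Of 27 neuronal genes it was 7 and 13 against 3 and 1. egl-21, for a carboxypeptidase that matures neuropeptides, had 5.02 and 7.51 against 3.70 and 2.35. rgef-1, a neuronal signalling gene, had 4.68 and 6.74 against 3.38 and no peak.

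Of 22 Hox and patterning genes, 1 and 6 (4.55% and 27.3%) had a peak without and 0 and 0 with auxin. lin-39, a Hox gene of the mid-body, had a peak of 3.18 in no auxin replicate 2 alone. Of 14 heterochronic and moult genes it was 2 and 3 against 2 and 1, and myrf-1, a transcription factor of the larval programme, was in all 4 with 3.19 and 5.21 against 3.01 and 1.80. Of 29 cuticle collagens only 1, 1, 2 and 0 had one, and of 26 germline genes 3, 3, 1 and 0. Of 11 epidermal transcription factors 0, 4, 1 and 0 had a peak, and of 12 intestinal ones 3, 3, 2 and 0.

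Of 28 immune genes, 0 and 8 (28.6%) had a peak without and 4 and 1 (14.3% and 3.57%) with auxin. The 8 were the lysozyme genes lys-1, lys-2, lys-4 and lys-8, the lectin gene clec-60, spp-1, irg-1 and nlp-31, with folds of 2.24 to 3.39. The 4 in auxin replicate 1 were cnc-2 and the neighbouring antimicrobial peptide genes nlp-27, nlp-29 and nlp-31, with folds of 2.07, 2.0, 3.17 and 3.5. nlp-31 was the only one also in auxin replicate 2, with 2.34, and in no auxin replicate 2, with 2.5. No list of the no auxin condition held a peak at nlp-27, nlp-29 or cnc-2.

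Set against the PQN-85 peaks of the control strain CA1200, the auxin lists overlapped more. The share at a control peak was 63.2% and 41.7% without auxin and 68.1% and 67.1% with it (difference 15.1 points, SD 15.2 and 0.764, n = 2 each, exact permutation p = 0.33). With the 1296 highest-score peaks of each list the direction turned. The share was then 86.4% and 84.6% without auxin and 79.9% and 67.1% with it, a difference of −12.1 points (exact permutation p = 0.33). This cut keeps only the strongest peaks of the longer lists. In each full list, peaks at a control peak had a higher median fold than the rest, so the turn is partly fixed by construction. In return the full lists recovered 75.9% and 93.8% of the control peaks without auxin and 48.6% and 15.2% with it. Peaks of JK06 held 76.2% and 50.9% of the lists without auxin and 82.4% and 88.04% of those with it.

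Set against SMC-3 in the control, the full lists had 66.0% and 45.7% of peaks at a control SMC-3 peak without auxin and 64.4% and 59.6% with it, and the groups overlapped (difference 6.13 points, exact permutation p = 1). Of the 1296 highest-score peaks it was 93.0% and 90.9% without auxin and 73.5% and 59.6% with it, and the groups did not overlap. The difference was −25.4 points (exact permutation p = 0.33). It too is partly fixed by the cut, since peaks at a control SMC-3 peak had the higher median fold in each full list. Of peaks with a fold of at least 3 the share was 91.7% and 72.8% against 69.8% and 70.9%. No control SMC-3 peak overlapped the high-fold sites near K07F5.15 and nspe-7, or the 4 sites named above from both auxin lists alone.

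SMC-3 lists of HW04 itself carry peak names that state the opposite condition to their labels, so they were matched by the input library in those names. The share of PQN-85 peaks at an SMC-3 peak of the same input was 74.2% and 58.4% without auxin and 54.2% and 54.4% with it. By those names the SMC-3 lists were also the longer ones without auxin, with 7457 and 8196 peaks against 4305 and 4091, and a longer list is overlapped more. H4K20me1, a mark enriched on the dosage-compensated X, covered 61.1% to 64.1% of X in the lists of the same inputs and overlapped 91.8% and 90.6% of PQN-85 peaks on X without auxin and 90.6% and 93.3% with it. On autosomes it overlapped 9.05% and 8.74% against 7.47% and 17.98%.

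Few of the genes with a peak were called in the RNA comparisons of other strains. The authors' deposited table of JK05 over CA1200 had 105 of 15316 genes under an adjusted p of 0.05, or 0.686%. Of 237 tested genes with a peak in all 4 lists, 3 (1.27%) were called in the authors' deposited table, and of 2073 with a peak in both lists without auxin 3 (0.145%). The authors' deposited table gave F45D11.16 a log2 fold change of 2.12 (SE 0.34), vig-1, an RNA-binding protein gene, −0.92 (SE 0.25) and Y39E4B.6 −1.24 (SE 0.28). Their PQN-85 folds were 2.53 and 3.92 without and 3.06 and 2.04 with auxin at F45D11.16, and 5.77 and 6.95 against 3.59 and 2.34 at Y39E4B.6. In the authors' deposited table of JK06 over CA1200, 0 of 244 such genes and 0 of 18308 in all were called.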

How the data were processed

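The 4 PQN-85 lists were analysed from the authors' deposited peak files. The deposited values per peak were a score (10 times the −log10 q as a whole number), the fold enrichment as a ratio of ChIP over input, the −log10 p and −log10 q, and the summit's offset from the start. Peaks were called per library with an input of its own, per the file headers and peak names. For ChIP-seq, MACS3, MACS2 2.1.1 and deepTools 3.5.0 are listed in the submitters' processing notes beside the aligner Bowtie2 2.4.2 and SAMtools 1.11. For RNA-seq they list DESeq2 1.30.0, HTSeq 0.13.5, HISAT2 2.2.1 and Cufflinks 2.2.1. The deposited RNA tables give, per the file headers, log2 fold changes with standard errors, p-values and adjusted p-values of the authors' fit, and the mean normalized count as an expression signal. Combined sets of other strains were made by the authors over libraries.

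No read number was used, so depth is unknown, and a weak or absent peak cannot be told apart from a shallow library. The submitters' processing notes state build ce10 for 38 samples but none for the HW04 lists. Gene starts came from the RNA tables, in which 18230 of 18607 genes were matched to RefSeq symbols by locus tag. Their gene coordinates near chromosome ends differed from WBcel235 by 12 to 101 bp, which is small beside the 500 bp window. Gene list counts cover members with a start, 32 of 51 for the large ribosomal subunit and 14 of 18 for cohesin. Coordinates are 1-based. The nearest gene is the one with the nearest start.

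Sites were made by chaining peaks that overlap by at least 1 bp across the lists, and a list's value at a site is its highest fold or greatest width there. Conditions were compared over libraries by two-sided exact permutation tests on log2 values or percent. Exact Clopper-Pearson 95% intervals cover counting error only. Python 3.11.15, pandas 2.3.3 and scipy 1.17.1 were used, and the functions were tested on simulated data. Named sites were the 12 in all 4 lists with the highest lowest fold (at most 3 per chromosome), 6 in both no auxin and neither auxin list, 4 in both auxin and neither no auxin list, the 4 widest in all 4, and per gene list the 3 with the highest lowest fold in all 4. Genes and sites beyond these were named after their values were seen, as were the 2 kb and 1 kb limits for broad sites and the match of SMC-3 lists by input. The 4 lists, gene lists and tests were chosen with earlier results of these data known. Motifs in promoters were not analysed here.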

Additional observations from a re-analysis of the deposited data

How the results depend on the processing

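Of 116 recalculations of the 12 tested differences, 104 kept their direction and 12 turned it, and with 2 libraries against 2 none could pass 0.05. With peaks of at least 3-fold, the difference (auxin minus no auxin, percentage points) became 1.79 for summits within a gene and −11.9 for peaks at control SMC-3 peaks. With lists of equal length it became 2.39 within a gene, 0.154 in the middle part of a chromosome, −12.1 at control PQN-85 peaks and −25.4 at control SMC-3 peaks, and with an overlap of at least 50% of both peaks −9.25 at control SMC-3 peaks. Leaving out each library in turn gave −0.16 to 0.00449 for the log2 median fold, −7.58 to 1.26 near a start, −3.09 to 0.551 within a gene and −4.02 to 16.3 at control SMC-3 peaks. The share of peaks overlapped by the other replicate (no auxin 1 and 2, auxin 1 and 2) was 95.2%, 41.12%, 32.2% and 94.8% at a −log10 q of at least 10, and 97.0%, 32.6%, 17.9% and 100% at 3-fold. It was 73.7%, 74.9%, 65.6% and 67.4% at equal length and 81.4%, 43.15%, 25.95% and 81.5% at 50% overlap. With close peaks joined no auxin 1 had 93.5%. At a −log10 q of at least 10, 561 sites were in all 4 lists, 1807 in both no auxin lists alone and 955 in these and auxin 1. At equal length these were 469, 248 and 184 of 2385 sites, with 255 in no auxin 2 alone and 267 in both auxin lists alone, and at 50% overlap the last numbered 114. The cause of these shifts was not tested. Among alternatives chosen after seeing the data, genes with a peak at the start in every list numbered 145 and 378 with windows of 250 and 1000 bp and 146 at equal length, against 245. The 23 sites wide without auxin and narrow with it became 47 with close peaks joined, and 0 at 50% overlap, where such pairs cannot overlap by construction. The replicate numbers are in the labels, but same-numbered libraries deviated together only weakly (r = 0.127 across 1005 sites, 2 pairs), so they were not taken as paired. With a replicate block the difference in covered bases stayed −2.16 on the log2 scale, and the smallest exact permutation p was 0.5. Leave-out and block values do not exist for the share overlapped by the other replicate or the site classes, and the promoter motif search was not run.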
